A study of Mus musculus with 6 samples.

Results

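Wnt ligands, their receptors and their secreted antagonists were read in whole fetal mouse lung, together with Axin2 and Lef1, which report and carry the signal inside the cell. A gene was a member when its symbol was Wnt, Fzd, Sfrp or Dkk followed by a digit, or was Axin2, Lef1, Wif1, Frzb, Lrp5 or Lrp6, and it was represented by its brightest probe set, the group of array probes that reads 1 transcript. This gave 44 members with 85 probe sets among 18193 genes. They were 19 Wnt ligands, 10 Frizzled receptors, 2 Lrp co-receptors, 10 antagonists, Axin2, Lef1 and Fzd10os, a transcript from the strand opposite Fzd10 that entered through its name. The series holds 6 arrays of total lung RNA taken at E18.5, shortly before birth, from mice of a mixed FVB/N and B6 background. In 3 samples Scap, which escorts the SREBP lipid regulators to their site of activation, had been deleted in respiratory epithelial cells, and 3 were controls. The promoter that drove the deletion, the alleles that the controls carried and whether a sample was 1 animal or a pool are not given in the sources used here. As a result, the p-values cover no more than the scatter among these 6 samples, part of which may be technical.

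Wnt proteins are secreted lipid-modified ligands. They bind Frizzled receptors, and with Lrp5 or Lrp6 as co-receptor they stop the destruction of beta-catenin, which then enters the nucleus and works with TCF and LEF factors on target genes such as Axin2. Sfrp proteins, Frzb and Wif1 bind the ligands outside the cell, whereas Dkk1, Dkk2 and Dkk4 act on Lrp5 and Lrp6. In the developing lung, Wnt2 and Wnt2b from the mesenchyme are together needed for the lung to be specified, Wnt7b is made by the epithelium and Wnt5a by the distal mesenchyme.

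Values are linear signals, and a log2 difference is the Scap-deleted mean less the control mean, given with its standard error (SE) in a limma fit over the 10972 genes tested, those with a mean signal of at least 497.8, the median over all probe sets. Adjusted p is Benjamini-Hochberg over these genes. Array medians lay between 490.9 and 530.5. The Scap probe set itself read 7264, 4195 and 3080 in controls and 1847, 3286 and 2702 in Scap-deleted lungs, so the groups overlapped (exact two-sided permutation p = 0.2, where 3 against 3 arrays can give no p below 0.1). Scap was lower after deletion in each of the 3 like-numbered pairs, with log2 differences of -1.98, -0.35 and -0.19. In the limma fit it stood at 55.9% of control (unadjusted p = 0.0371, adjusted p = 0.808), so the deleted gene itself was not called. A second Scap probe set, below the limit, gave -0.40. Where the probes lie relative to the deletion is not known, and whole lung also holds cells in which Scap was not deleted. The Scap reading is therefore no clean measure of sensitivity, and a member that was not called may still differ. All 7 general epithelial markers and 9 of 10 lung mesenchyme markers were above the signal limit of 497.8. The 5 markers listed for other organs (Alb, Afp, Cd3e, Krt5 and Krt13) were below it. Of 6 heart and skeletal muscle markers, however, 5 were above it, among them Myh6 at a control mean of 9466. These 5 averaged 0.36 log2 above their 6-array mean in Scap-deleted replicate 1, and -0.28 in Scap-deleted replicate 2. The deviations of the samples numbered 3 in their titles went together (correlation 0.43). The other like-numbered pairs gave 0.17 and 0.20, close to the 0.18 of control replicate 2 with Scap-deleted replicate 1. In whole lung, fewer cells of a type and less RNA per cell cannot be told apart.

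No Wnt pathway member was called different between Scap-deleted and control lungs. Of the 44 members, 24 were bright enough to be tested, and 0 of them passed an adjusted p of 0.05 with limma, against 1 gene or 0.00911% of all genes tested. The smallest adjusted p of a member was 0.806. Without adjustment, 2 members reached p below 0.05 as higher (Fzd8 and Sfrp4) and 0 as lower, where 2.88% of all genes did so as higher and 3.04% as lower. With the replicate number of the titles as a block the same count was 2, where 8.7% of all genes did so. The members divided into 12 with positive and 12 with negative differences, their median was 0.01 on the log2 scale, or 100.4% of control, and the median over all genes tested was 100.4% as well. Differences ranged from -0.29 for Sfrp2 to 0.36 for Sfrp4. The 95% interval of the difference lay within 1.5-fold in either direction for 18 of the 24 members and within 2-fold for all 24. Of all 10972 genes tested, 8867 lay within 1.5-fold and 10660 within 2-fold. The median SE was 0.15 for the members and 0.12 for all genes. The members outside the narrower bound were Wnt2, Wnt9a, Sfrp1, Sfrp2, Sfrp4 and Wif1.

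**Figure D1:**
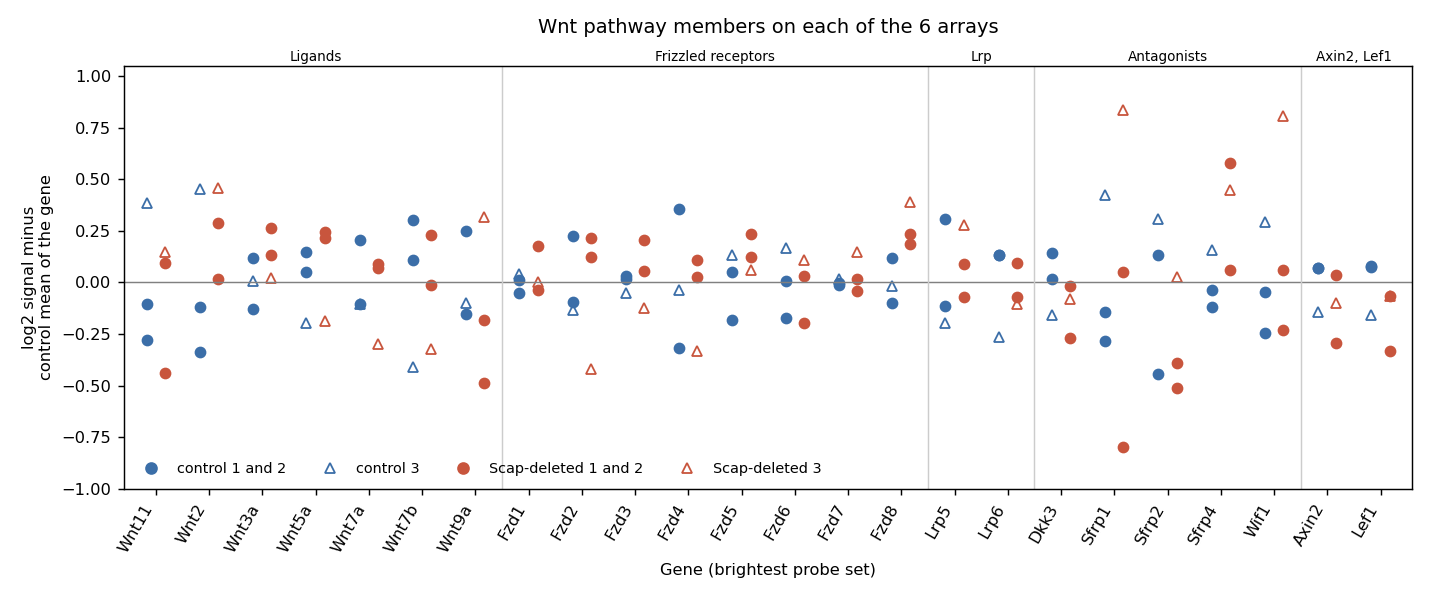
log2 signal of each of the 24 tested members on each array, less the mean of the 3 control arrays for that gene; blue marks control and red Scap-deleted arrays, with triangles for the arrays numbered 3. Fzd8 is the member in which all 3 Scap-deleted arrays lie above all 3 controls, and Sfrp1 and Wif1 show the high readings of both arrays numbered 3.

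Among the ligands, 7 of 19 were bright enough to test, and 3 had positive and 4 negative differences. Wnt2, the mesenchymal ligand, gave signals of 3090, 2658 and 4592 in controls 1, 2 and 3, and of 4090, 3390 and 4604 in the Scap-deleted lungs in the same order; all values below follow this order. The groups overlapped, because control replicate 3 lay just below the highest Scap-deleted array. The log2 difference was 0.25 (SE 0.21, adjusted p = 0.917, 95% interval -0.25 to 0.75). It was 0.48 without control replicate 3 (adjusted p = 0.715), with the groups then apart, and 0.09 without control replicate 2. Wnt2 was higher after deletion in all 3 like-numbered pairs, although in the third by 0.0038 only, and with the replicate number as a block its unadjusted p was 0.0690 (adjusted p = 0.615). The 9 lung mesenchyme markers tested, of 10 listed, had summed signals between 163490 and 194410 in controls, against 172910 to 179280 after deletion; their part in the Wnt2 values was not tested.

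Wnt3a, best known as a ligand of the beta-catenin branch, read 1249, 1480 and 1373 in controls and 1495, 1636 and 1385 in Scap-deleted lungs, and 2 of the 3 Scap-deleted arrays lay above every control. Its log2 difference was 0.14 (95% interval -0.12 to 0.39). Wnt7b, the epithelial ligand, read 1668, 1910 and 1166 in controls and 1536, 1814 and 1239 in Scap-deleted lungs, where the lowest array of either group was its number 3. Its log2 difference of -0.04 had an interval from -0.53 to 0.46. The 7 general epithelial markers had summed signals from 80278 to 86250 in controls, and from 85741 to 88880 after deletion, with the median marker at 105.8% of control. Single markers went both ways. Epcam stood at 77.3% with the groups apart as lower, and Cldn4 at 135.9% with the groups apart as higher. Each is 1 of 7, where 5.72% and 6.11% of all genes were apart in these directions. The alveolar type II list, with 7 of 8 members tested, had sums of 310790 to 389160 and then of 272040 to 327910, with the median member at 76.5% of control. The part of either list in the Wnt7b values was not tested.

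Wnt5a, which signals largely without beta-catenin, read 2033, 2174 and 1714 in controls and 2329, 2277 and 1728 in Scap-deleted lungs, again lowest in the arrays numbered 3. Its log2 difference was 0.09, and its other 2 probe sets above the limit gave 0.21 and 0.19. Its dimmest probe set, just below the limit, read from 482.0 to 618.1 in controls and from 371.7 to 416.6 in Scap-deleted lungs, a difference of -0.45 with the groups apart. Wnt11 stood at -0.07 (SE 0.22), Wnt7a at -0.05 (SE 0.15) and Wnt9a at -0.12 (SE 0.21). All 3 overlapped between the groups. A second Wnt7a probe set above the limit gave 0.12.

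The other 12 ligands (Wnt1, Wnt2b, Wnt3, Wnt4, Wnt5b, Wnt6, Wnt8a, Wnt8b, Wnt9b, Wnt10a, Wnt10b and Wnt16) had mean signals from 28.1 to 485.6, below the limit, and were not tested. Whether such probe sets lie above background is not known. Wnt6 was the nearest to the limit from below, at 485.6, and Wnt9a the lowest ligand above it. Among the dim ligands, Wnt8b read 125.2, 219.9 and 216.2 in controls and 118.2, 92.1 and 91.0 in Scap-deleted lungs, so its groups did not overlap. With no filter on brightness, limma gave Wnt8b an unadjusted p of 0.0208 and Wnt3 one of 0.0293, with adjusted p = 0.808 and 0.820.

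The 43 members found in the RefSeq gene table of GRCm38.p6 held 4 pairs of ligand genes with no other protein-coding gene between them: Wnt6 with Wnt10a, Wnt3a with Wnt9a, Wnt3 with Wnt9b, and Wnt1 with Wnt10b. Only in the pair of Wnt3a and Wnt9a were both genes bright enough to test, and their log2 differences were 0.14 and -0.12. In the other 3 pairs both genes were dim. The dim Fzd10 read 355.7, 421.3 and 636.9 in controls and 557.8, 309.4 and 382.9 in Scap-deleted lungs. Fzd10os, on the opposite strand, read 346.1, 362.0 and 603.1 in controls and 497.0, 312.9 and 344.4 in Scap-deleted lungs with its brightest probe set. In both, control replicate 3 and then Scap-deleted replicate 1 read highest. A second Fzd10os probe set did not follow that order: it read 208.9, 215.1 and 186.5 in controls and 114.6, 89.1 and 128.4 in Scap-deleted lungs, so its groups were apart (log2 difference -0.89).

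Of the 10 Frizzled receptors, the membrane proteins that bind Wnt ligands, 8 were tested, and all 8 intervals lay within 1.5-fold. Fzd8 read 1467, 1260 and 1333 in controls and 1590, 1536 and 1771 in Scap-deleted lungs, or 1353 ± 105 against 1632 ± 123 (SD, n = 3). Every Scap-deleted array lay above every control array. The log2 difference was 0.27 (SE 0.10, unadjusted p = 0.0345, adjusted p = 0.806, 95% interval 0.03 to 0.51). Groups apart in this way were found as higher in 1 of 24 members, against 6.11% of all genes tested, and as lower in 0, against 5.72%. A dimmer Fzd8 probe set, below the limit, gave 0.12.

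Fzd5, a receptor present in endoderm-derived epithelia, read 1584, 1346 and 1677 in controls and 1666, 1801 and 1596 in Scap-deleted lungs. The groups overlapped, with a log2 difference of 0.14 (95% interval -0.13 to 0.41). Fzd1 read 8645, 8275 and 8826 in controls and 9706, 8352 and 8606 in Scap-deleted lungs, a difference of 0.05 (95% interval -0.18 to 0.28). Fzd7, at 0.04, had the smallest SE of the members, 0.09. Fzd2, Fzd3, Fzd4 and Fzd6 stood at -0.03, 0.04, -0.07 and -0.02, all with overlapping groups. Fzd9 and Fzd10 were dim.

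The co-receptors Lrp5 and Lrp6, which join Frizzled in the beta-catenin branch, were both tested. Lrp6 read 4995, 5003 and 3800 in controls, then 4870, 4341 and 4237 after deletion, which is -0.03 on the log2 scale (95% interval -0.34 to 0.29). Its second probe set, also above the limit, read 1647, 1407 and 1364 in controls and 720.2, 1221 and 1298 in Scap-deleted lungs, with the groups apart and a difference of -0.49. The probe sets of Lrp6 thus gave different values, and the part of the transcript that each reads was not examined. Lrp5 stood at 0.10 (SE 0.16) with a single probe set.

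**Figure D2:**
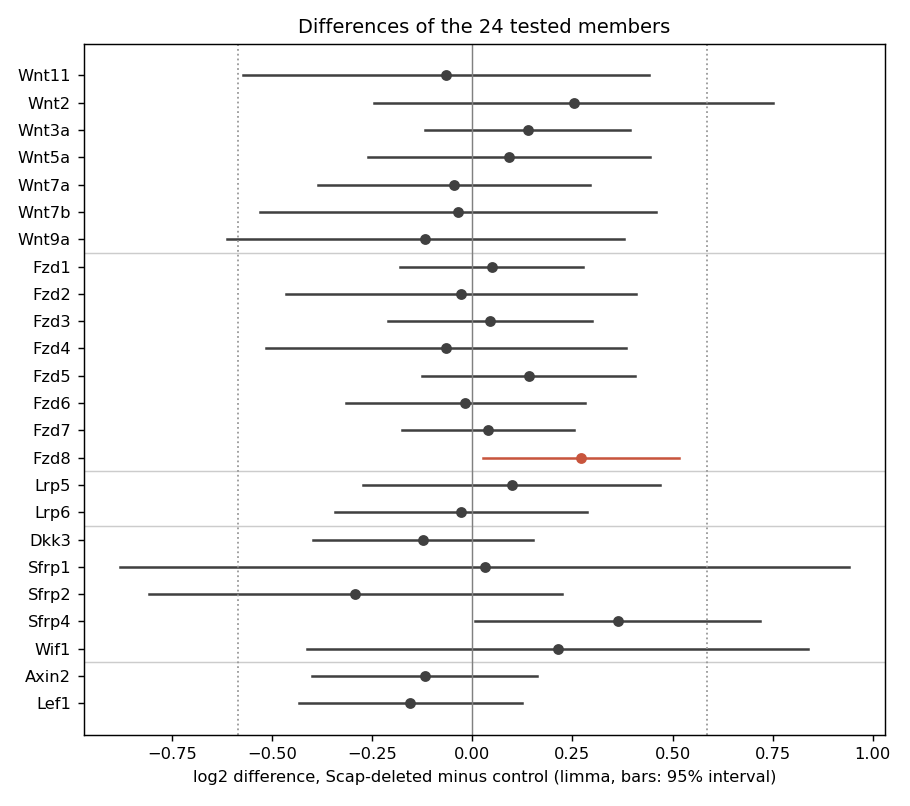
log2 difference, Scap-deleted minus control, of each tested member (point) with its 95% interval from limma (bar); dotted lines mark 1.5-fold in either direction, and red marks the member whose groups did not overlap. Fzd8 and Sfrp4 have intervals that leave out 0, the widest interval is that of Sfrp1, and all Frizzled intervals lie inside the dotted lines.

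Of the 10 secreted antagonists, 5 were tested, and the interval of Dkk3 alone lay within 1.5-fold. Sfrp4, a Frizzled-related protein that binds Wnt ligands, read 503.7, 531.9 and 608.5 in controls and 815.5, 570.3 and 746.0 in Scap-deleted lungs. Scap-deleted replicates 1 and 3 lay above all controls and replicate 2 lay among them. The log2 difference was 0.36 (SE 0.15, unadjusted p = 0.0466, adjusted p = 0.831), and it became 0.51 without Scap-deleted replicate 2 and 0.26 without Scap-deleted replicate 1. Sfrp4 lay close to the brightness limit, and with no filter its unadjusted p was 0.0839.

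Sfrp2 had the largest negative difference of the members. It read 703.1, 1048 and 1181 in controls and 727.4, 669.8 and 972.4 in Scap-deleted lungs, so control replicate 1 lay among the Scap-deleted arrays. The log2 difference was -0.29 (SE 0.22, adjusted p = 0.902), and it ranged from -0.51 without control replicate 1 (adjusted p = 0.971) to -0.14 without control replicate 3 and -0.18 without Scap-deleted replicate 2. Wif1, which binds Wnt ligands through a domain of its own kind, read 784.9, 684.4 and 995.0 in controls and 846.7, 691.3 and 1421 in Scap-deleted lungs. Its difference of 0.21 (95% interval -0.41 to 0.84) was -0.09 without Scap-deleted replicate 3 and 0.06 without both arrays numbered 3. Wif1 was higher after deletion in all 3 like-numbered pairs, by 0.11, 0.01 and 0.51.

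Sfrp1 read 761.6, 840.0 and 1242 in controls and 959.0, 533.6 and 1655 in Scap-deleted lungs. Its lowest and highest readings were both Scap-deleted, and its interval, from -0.88 to 0.94, was the widest of the members. The 4 Sfrp1 probe sets above the limit gave differences from 0.01 to 0.56. Dkk3, a Dickkopf relative whose action on the co-receptors is uncertain, read 3285, 3009 and 2666 in controls and 2936, 2471 and 2816 in Scap-deleted lungs, a difference of -0.12, and its second probe set gave 0.12. Dkk1, Dkk2, Dkk4, Frzb and Sfrp5 were dim, at 69.9 to 434.5. Dkk1 read 114.5, 140.2 and 110.2 in controls and 184.3, 140.9 and 147.3 in Scap-deleted lungs, groups that were apart with neighbouring readings of 140.2 and 140.9. Sfrp5 read 532.9, 465.0 and 557.6 in controls and then 333.3, 296.0 and 493.5, with overlapping groups. Its dimmer second probe set went the other way, from 110.0, 59.9 and 37.3 in controls to 62.2, 245.8 and 427.8, also with overlap.

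Axin2 and Lef1, the readouts closest to beta-catenin, both had lower means after deletion, neither was called, and both 95% intervals include 0. Axin2, which promotes the destruction of beta-catenin and is induced by it, read 3574, 3572 and 3081 in controls and 3488, 2774 and 3173 in Scap-deleted lungs. The log2 difference was -0.12 (SE 0.12, adjusted p = 0.941, 95% interval -0.40 to 0.16), and a second probe set gave -0.18. Lef1, a DNA-binding partner of beta-catenin, read 911.6, 913.2 and 775.3 in controls and 686.5, 825.0 and 825.4 in Scap-deleted lungs. Its difference was -0.16 (SE 0.12, adjusted p = 0.906). In both genes control replicates 1 and 2 lay above every Scap-deleted array and control replicate 3 lay among them.

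Because the arrays numbered 3 deviated together, the members were also read without them. With both left out, groups of 2 were apart in 12 of the 24 members, 7 higher and 5 lower, against 39% of all genes. The higher ones were Fzd3, Fzd5, Fzd8, Sfrp4, Wnt2, Wnt3a and Wnt5a, and the lower ones Axin2, Dkk3, Lef1, Lrp6 and Wnt9a. None was called, and the smallest adjusted p was 0.649. When single arrays were dropped, the count of members apart went from 1 to 8 on dropping control replicate 3 (24% of all genes) and to 5 on dropping Scap-deleted replicate 3 (24.5%). It was 3 after dropping control replicate 1 (19.3%), and 2 after dropping replicate 2 of the controls (22.6%) or of the Scap-deleted lungs (19.8%). It stayed at 1, Fzd8, without Scap-deleted replicate 1 (20.1%). The members at an unadjusted p below 0.05 numbered 0 without control replicate 2 (6.19% of all genes), Scap-deleted replicate 1 (4.93%) or Scap-deleted replicate 3 (6.98%), and 1, Wnt2, without both arrays numbered 3 (7.59%). There were 2 without control replicate 1 (Fzd8 and Sfrp2, 4.9%), control replicate 3 (Sfrp4 and Wnt2, 6.64%) or Scap-deleted replicate 2 (Fzd8 and Sfrp4, 4.65%). Fzd8, whose groups are apart with all 6 arrays, could not overlap in these readings, and its unadjusted p lay between 0.0304 without control replicate 1 and 0.162 without both arrays numbered 3.

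In 7 of the 24 members the array numbered 3 was the highest of its group in both groups (Fzd6, Fzd7, Sfrp1, Sfrp2, Wif1, Wnt2 and Wnt11), against 21.8% of all genes tested. In 5 it was the lowest in both (Fzd2, Fzd3, Lrp6, Wnt5a and Wnt7b), against 15.1%. Sfrp1 was higher in array 3 than in the mean of arrays 1 and 2 by 0.63 on the log2 scale in controls and by 1.21 in Scap-deleted lungs. Wif1 was higher by 0.44 and 0.89, Sfrp2 by 0.46 and 0.48, Wnt2 by 0.68 and 0.31 and Wnt11 by 0.58 and 0.32. For Wnt7b the values were -0.61 and -0.43, for Fzd2 -0.20 and -0.59 and for Wnt5a -0.29 and -0.41. These 8 genes were singled out after their values were seen.

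The pattern differed among probe sets of the same gene. All 3 Fzd2 probe sets had array 3 lowest in both groups, and 4 of the 5 Sfrp1 probe sets had it highest. By contrast, of the 4 Wnt5a probe sets only the brightest had it lowest. The other probe sets of Fzd6, Fzd7, Lrp6 and Wnt7b did not repeat the pattern of the brightest either. Among the other Fzd3 probe sets only the dim probe set at a mean signal of 196.5 did. On the same arrays the 4 airway club markers averaged 0.79 log2 above their 6-array mean in control replicate 3 and 0.41 in Scap-deleted replicate 3, and lay between -0.87 and 0.12 on the other arrays. The mesothelium list (0.19 and 0.23) and the leukocyte list (0.15 and 0.16) were also highest on average in the arrays numbered 3 of both groups. So were the alveolar type II list (0.30 and 0.07) and the alveolar type I list (0.08 and 0.03), with control replicate 1 close, at 0.24 and 0.06. In the type II list all but Sftpc and Abca3 were highest there in both groups. In the type I list only Ager was, and Pdpn was lowest there. The 9 lung mesenchyme markers averaged between -0.11 and 0.12 on the 6 arrays, but single ones moved further. Dcn, an extracellular matrix proteoglycan, read 2943, 2268 and 4423 in controls and 2512, 1851 and 4138 in Scap-deleted lungs. Dcn and Tcf21 were highest in the arrays numbered 3 of both groups, Tbx5 and Foxf1 were lowest there, and the other mesenchyme markers were neither. The part of these marker lists in the readings of Sfrp1, Wif1 and Wnt2 was not tested. The sources used here do not say what the number in a title means.

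**Figure D3:**
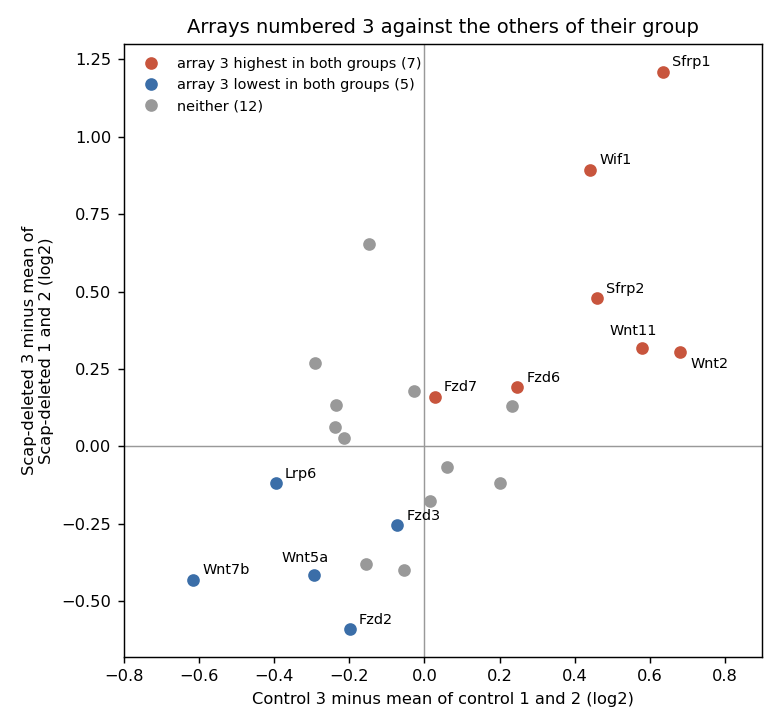
For each tested member, log2 signal of the array numbered 3 less the mean of arrays 1 and 2, in controls (horizontal axis) and in Scap-deleted lungs (vertical axis); red marks the 7 members with array 3 highest in both groups and blue the 5 with it lowest in both. Sfrp1 lies farthest out at 0.63 and 1.21, and Wnt7b lies on the opposite side at -0.61 and -0.43.

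Promoters are shown, for a reader to compare, of members that were highest in the arrays numbered 3 of both groups. This held in 7 of the 24 members and in 21.8% of all genes tested, so it is not particular to them. In Fzd7 array 3 was higher by 0.03 log2 only in controls and by 0.16 in Scap-deleted lungs. The stretches shown are the 150 bases before the start of the transcript, 5′ to 3′ along the gene. They come from the RefSeq promoter table of GRCm38.p6, which matched 29 of the 44 members. Fzd6 and Sfrp1 were not matched. Capitals mark matches, on either strand, to any of 6 short motifs. The core bound by TCF and LEF factors was searched as CTTTGAT, and the sterol regulatory element, which SREBP proteins bind, as TCACNCCAC. The E-box was searched as CACGTG, the box for the general factor Sp1 as GGGCGG, called the GC box here. The remaining pair were the CCAAT box, searched under those letters, and the box of promoters with a fixed start, searched as TATAAA. Neighbouring GC boxes may share letters, and the other motifs did not overlap in these stretches.
Wnt2, chr6:18030446-18030595, minus strand: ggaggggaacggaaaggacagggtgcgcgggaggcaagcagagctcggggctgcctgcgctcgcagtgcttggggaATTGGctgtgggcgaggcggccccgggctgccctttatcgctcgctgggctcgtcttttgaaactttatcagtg
Wnt11, chr7:98834962-98835111, plus strand: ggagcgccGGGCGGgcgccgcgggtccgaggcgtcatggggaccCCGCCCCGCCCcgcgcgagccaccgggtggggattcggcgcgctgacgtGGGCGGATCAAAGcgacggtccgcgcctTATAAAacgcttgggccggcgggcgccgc
Wif1, chr10:121033854-121034003, plus strand: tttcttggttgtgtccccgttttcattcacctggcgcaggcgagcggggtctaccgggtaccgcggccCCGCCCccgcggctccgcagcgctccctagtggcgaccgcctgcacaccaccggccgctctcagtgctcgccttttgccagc
Sfrp2, chr3:83766171-83766320, plus strand: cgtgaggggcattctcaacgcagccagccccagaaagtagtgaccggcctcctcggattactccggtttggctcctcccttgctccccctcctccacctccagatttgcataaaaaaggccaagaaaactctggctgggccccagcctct
Fzd7, chr1:59481997-59482146, plus strand: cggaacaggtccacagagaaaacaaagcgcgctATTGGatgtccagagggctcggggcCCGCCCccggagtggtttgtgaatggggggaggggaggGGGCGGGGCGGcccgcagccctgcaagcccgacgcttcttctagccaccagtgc

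Wnt11 has 2 starts in the table, and the second, 150 bases of which hold none of the motifs, is not shown. It was the tested member with a CTTTGAT match, which began 51 bases before its first start, read on the opposite strand, next to a GC box and upstream of a TATAAA at 29 bases before that start. Over windows of 300 bases, from 250 before to 50 after the start, 2 of 35 windows of members (Wnt11 and the dim Wnt5b) held CTTTGAT, or 5.71%, against 3.73% of all 32851 windows. TCACNCCAC was in 0 of the 35 and in 1.24% of all windows. CACGTG was in 11.4% of the members' windows against 7.15%, CCAAT in 34.3% against 37.4%, TATAAA in 17.1% against 13.6% and GGGCGG in 77.1% against 35.7%. The 35 windows include several starts of the same gene, such as 4 of Lef1, and a match is a run of letters and not a binding site.

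Probe sets of the same gene gave a measure of how far a single value can be trusted. Of the 10 members with more than 1 probe set above the limit, 3 had probe sets of both signs (Dkk3, Fzd2 and Wnt7a). The spread between the lowest and highest probe set of a gene was widest in Sfrp1, at 0.55 on the log2 scale, and in Lrp6, at 0.46, and narrowest in Fzd4, at 0.04. Averaging a gene's probe sets moved Dkk3 from -0.12 to 0.0009.

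**Figure D4:**
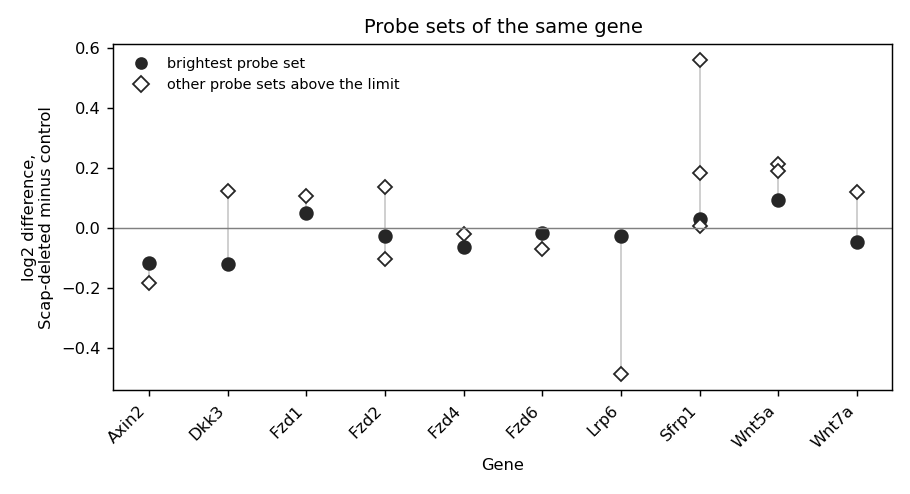
log2 difference, Scap-deleted minus control, of every probe set above the brightness limit in the 10 members that had more than 1; filled circles mark the brightest probe set and open diamonds the others. Axin2, Fzd1, Fzd4 and Fzd6 keep to a narrow range, whereas Sfrp1 runs from 0.01 to 0.56 and Lrp6 from -0.49 to -0.03.

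Genes that make, receive and relay the Wnt signal outside the member families were read from a list of 83, of which 63 were tested. Their median was 101.6% of control, 35 were positive and 28 negative, and 0 passed the adjusted threshold. Without adjustment 6 were higher (Cby1, Nkd1, Bmp4, Cd44, Daam2 and Ccnd2) and 1 lower (Tnfrsf19). Together they were 11.1% of the 63, beside 5.92% of all genes in either direction. The list was chosen with earlier results of these data known. Groups were apart in 4 of the 63 as higher and 7 as lower, where 6.11% and 5.72% of all genes were.

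Cby1, which binds beta-catenin and holds it from TCF and LEF factors, read 1213, 1018 and 766.0 in controls and 1383, 1564 and 1590 in Scap-deleted lungs. All Scap-deleted arrays lay above all controls (log2 difference 0.62, SE 0.17, unadjusted p = 0.00739, adjusted p = 0.731). Nkd1, a feedback inhibitor that acts on Dishevelled, read 8159, 8959 and 9196 in controls and 9473, 13045 and 13342 in Scap-deleted lungs, again with the groups apart. Its brightest probe set gave 0.43 (adjusted p = 0.766) and its other 3 gave 0.17 to 0.25. Notum, an enzyme that removes the lipid of Wnt ligands, stood at 81.4% of control with the groups apart in the other direction (adjusted p = 0.858).

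Of 12 known targets tested outside the member families, 9 had positive and 3 negative differences, where 5676 of all 10972 genes were positive. Axin2 and Lef1, also known targets, are members and were left out of this count, and both were negative (-0.12 and -0.16). Cd44, a cell surface receptor for hyaluronan, read 6905, 7199 and 7783 in controls and 9460, 8603 and 10262 in Scap-deleted lungs, with the groups apart (log2 difference 0.37, SE 0.11, adjusted p = 0.731). Ccnd2, a cyclin of the G1 phase, stood at 121.9% of control, and its other 4 probe sets above the limit read 113.0% to 139.2%. Bmp4, a ligand of another pathway that shapes the lung, stood at 132.2% with overlapping groups. Tnfrsf19, a receptor of the TNF family, read 4971, 4741 and 3997 in controls and 3517, 3294 and 3847 in Scap-deleted lungs, and its 3 probe sets read 77.9% to 90.5% of control. Many of these targets answer to other signals as well, and the 3 with negative differences were Tnfrsf19, Sox9 and Id2.

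In the planar polarity branch, which orients cells without beta-catenin, 3 genes were positive and 6 negative. Prickle1, Daam1 and Scrib had groups apart as lower, at 85.8%, 89.2% and 87.7% of control (3 of 9, where 5.72% of all genes were apart as lower), while Daam2 stood at 128.8%, although its second probe set read 92.8%. The 28 tested genes of the relay in cytoplasm and nucleus had a median of 101.2% of control, with 16 positive and 12 negative. Ctnnb1, which encodes beta-catenin itself, had a log2 difference of 0.03. Of the genes whose products mark it for destruction, Axin1 stood at 0.01, Apc at 0.10, Csnk1a1 at -0.09, Gsk3a at -0.19 with the groups apart, Gsk3b at -0.20 and Btrc at -0.21.

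**Figure D5:**
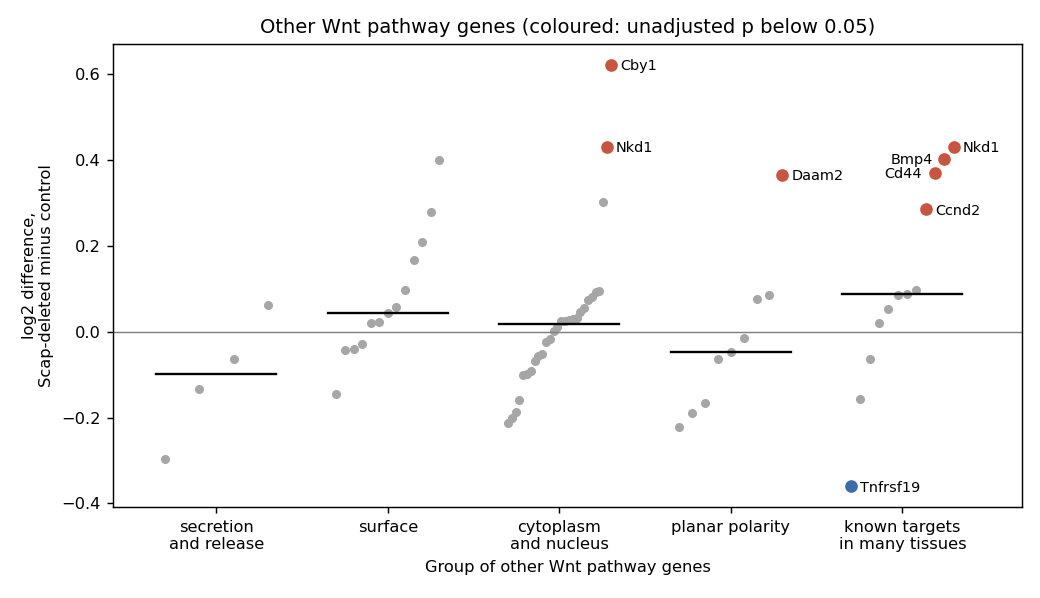
log2 difference, Scap-deleted minus control, of the tested genes of 5 groups of other Wnt pathway genes, each point a gene and each black line the group's median; coloured points reached an unadjusted p below 0.05, and Nkd1 is in 2 of the groups. Cby1 is the highest at 0.62 and Tnfrsf19 the lowest at -0.36, and no gene passed after adjustment.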

How the data were processed

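RNA of 6 fetal mouse lung samples was hybridised to MOE430 V2 arrays. The authors deposited 1 table of linear intensity values for 45101 probe sets; the submitters' processing notes name RMA, but the values are linear and each array has the same mean, 1500.01, after trimming 2% at each end. The background step is not stated in the sources. The log2 was taken without a pseudocount. After removal of 64 control probe sets, 34945 had a single symbol in GEO's platform annotation, 932 had several and 9160 had none. Each gene was represented by its brightest probe set, and 7221 genes below the median signal were not tested. Groups were taken from the titles and compared by limma 3.58.1 (lmFit, eBayes; R 4.3.3), which was tested on simulated data. The number of arrays limits the precision.

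Members, gene lists and alternatives were chosen with earlier results of these data known. Per-array values are given for members apart, at an unadjusted p of 0.05, among the 8 of largest difference or brightest in their role, and for others where stated or where a description needed them. Titles number both groups 1 to 3. Deviations from group means had correlations of 0.17, 0.20 and 0.43 for the like-numbered pairs. Each exceeds 0.1, so the numbers, known from the titles, may pair the samples. The fits and the permutation test reported are unpaired, and the fit with the replicate number as a block is an alternative. Control replicate 2 with Scap-deleted replicate 1 gave 0.18.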

Additional observations from a re-analysis of the deposited data

How the results depend on the processing

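Under all 15 alternatives, 0 members were called. Counts of other kinds moved. All genes called went from 1 to 0 with no brightness filter, the limit at the 75th percentile, the replicate block, an intensity trend with robust prior, or without both arrays numbered 3, and was 0 to 1 leaving out 1 array. The replicate block changed no member's call. Members at an unadjusted p below 0.05 went from 2 to 0 under quantile normalization (5.89% of all genes), the 75th percentile (10 members tested, 6.27%) and the robust trend (5.81%), to 1 without both arrays numbered 3, and were 0 to 2 leaving out 1 array; with no filter there were again 2 of 44 (5.84%), but they were Wnt3 and Wnt8b. Members with groups apart went from 1 to 3 of 44 with no filter (Dkk1, Fzd8 and Wnt8b; 11.9% of all genes in either direction), 0 of 10 at the 75th percentile (12.3%) and 12 without both arrays numbered 3, and were 1 to 8 leaving out 1 array; fewer arrays make separation easier.

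The sign of 16 members changed under some alternative, and that of 8 under none. With the mean of probe sets, Dkk3 became 0.00086, Fzd2 0.0013 and Wnt7a 0.037. Without both arrays numbered 3, Fzd2 became 0.10, Fzd4 0.05002, Fzd6 0.0013, Fzd7 -0.0049, Lrp5 -0.0884, Sfrp1 -0.16, Wnt11 0.0208 and Wnt7a 0.0282. Leaving out 1 array gave log2 differences from -0.15 to 0.17 for Fzd2, -0.16 to 0.0385 for Lrp6, -0.37 to 0.44 for Sfrp1, -0.24 to 0.12 for Wnt7b, -0.33 to 0.0681 for Wnt9a, -0.22 to 0.11 for Fzd4, -0.12 to 0.0799 for Wnt7a, -0.10 to 0.0713 for Fzd6, -0.21 to 0.13 for Wnt11, -0.0069 to 0.23 for Wnt5a, -0.0171 to 0.0914 for Fzd1, -0.0347 to 0.13 for Fzd3, -0.0141 to 0.0807 for Fzd7 and -0.0851 to 0.43 for Wif1. The cause was not tested. No detection calls were used here, so how far the dim members lie above background is not known.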
